A study of Homo sapiens with 3 samples.

Results

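The miR-320 family comprised every feature whose name begins with miR-320 in 2 tables of small RNA counts from the human leukemia cell line MV4-11. The table of mature miRNAs held 5 such names (miR-320a, miR-320b, miR-320c, miR-320d and miR-320e, on 8 rows) of 783, and the table of primary transcripts held 8 hairpins of 661. Members were taken by name only, but the family was chosen with earlier results of these data known. MV4-11 is an acute myeloid leukemia line with an internal tandem duplication in the receptor kinase FLT3. The cells of every library had been infected with an empty-vector (EV) lentiviral CRISPR-Cas9 construct, which carries Cas9 and no guide against a gene, had been grown for 2 weeks, and were given the genotype WT. The 3 libraries, replicates 1 to 3, formed 1 group from 1 cell line, so no treated, guide-carrying or uninfected group was compared here, and all comparisons are between miRNAs within the same libraries. The libraries tell how much of each miRNA these cells held, and in bulk RNA fewer cells that make a miRNA and less of it per cell cannot be told apart.

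Most miRNAs are cut out of long nuclear transcripts by the enzyme Drosha and its partner DGCR8, and the hairpin so released is cut again by Dicer in the cytoplasm. The hairpin that gives miR-320a is known as an exception: transcription starts at its 5′ end and stops at its 3′ end, so the hairpin is itself a capped transcript, leaves the nucleus by Exportin-1 and is cut by Dicer without a step by Drosha. The 5′ arm of such a hairpin keeps the cap, and the mature miRNA comes from the 3′ arm. Another capped hairpin, that of miR-484, is made the same way, and mirtrons are a second class, in which splicing of a short intron frees the hairpin. Whether the hairpins of miR-320b to miR-320e are also capped transcripts was not given in the sources used here and was not measured by these counts. No library without Drosha was analysed, so the data give the levels of these miRNAs, not their route of processing.

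A miRNA recognises its targets mainly through its seed, bases 2 to 8 from its 5′ end, and the mature sequences are shown because the members differ in their seeds and ends. Of the 5 mature sequences 4 were at hand from RefSeq (GRCh38.p14), all but that of miR-320a. They are written here 5′ to 3′ with the seed in capitals.
miR-320b: aAAAGCUGgguugagagggcaa
miR-320c: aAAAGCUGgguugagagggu
miR-320d: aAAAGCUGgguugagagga
miR-320e: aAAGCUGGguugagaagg
miR-320b, miR-320c and miR-320d shared their first 18 bases, and with them the seed AAAGCUG. Of 2370 human mature sequences searched, which did not include that of miR-320a, 4 had this seed, these 3 and miR-4429. miR-320e started 1 base later than the others, so its seed was AAGCUGG, and no other of the 2370 had that seed. With positions counted from 1 at the 5′ end of miR-320b, miR-320c carried C20U and ended there, miR-320d carried G19A and ended there, and miR-320e carried G17A. The differences between miR-320b, miR-320c and miR-320d thus lie in their last bases, and a read that stops at base 18 matches all 3 of them. Whether such a read also matches miR-320a was not examined. The part of reads that fit several members in the ratios between members was not tested.

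The 8 genes lie on 6 chromosomes (GRCh38, RefSeq coordinates, with host genes and gene starts from GENCODE v29, since the deposited tables hold no positions). MIR320A (chromosome 8, 22244966 to 22245037, minus strand) overlaps no gene. Its nearest protein-coding gene start was that of POLR3D, a subunit of RNA polymerase III, on the opposite strand at a distance of 67 bp. MIR320B1 (chromosome 1, 116671746 to 116671817, plus strand), MIR320D1 (chromosome 13, 40727816 to 40727887, minus strand) and MIR320D2 (chromosome X, 140926160 to 140926231, minus strand) also overlap no gene. MIR320B2 (chromosome 1, 224257040 to 224257110, minus strand) and MIR320E (chromosome 19, 46709282 to 46709354, minus strand) lie in introns of NVL and PRKD2 on the strand of the host. MIR320C1 (chromosome 18, 21683518 to 21683589, plus strand) and MIR320C2 (chromosome 18, 24321675 to 24321746, plus strand) lie in introns of ABHD3 and OSBPL1A on the strand opposite to the host. For these 7 hairpins the nearest protein-coding start was 3991 to 76360 bp away. MIR484 (chromosome 16, 15643294 to 15643372, plus strand) lies in an exon of NDE1 and 27 bp from that gene's start. Of the 648 listed hairpins that could be placed, 19 (2.93%) lay within 100 bp of a protein-coding start, mir-320a and mir-484 among them, and the median distance of all was 18603 bp. The median hairpin FPKM was 24.5 for the 19 and 68.3 for the rest, a difference that was not tested.

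The libraries held 12694823, 10991953 and 11682129 mature counts in replicates 1, 2 and 3. Replicate 1 stood apart in its most abundant miRNA, miR-21-5p, which took 38.5%, 26.8% and 20.2% of mature counts. White blood cell miRNAs were high, with miR-155-5p at rank 11 of 783 and miR-142-3p at rank 19, and 5 miRNAs typical of other tissues had rows too, of which miR-124-3p, known from brain, ranked highest at 72. Levels are FPKM (counts divided by feature length and library total) unless counts are named. Replicate 1 was also low in white blood cell miRNAs. Over replicates 1, 2 and 3 miR-142-3p had 209151, 676033 and 701152 FPKM, and miR-223-3p 91627, 279634 and 321370. miR-155-5p and miR-181a-5p were lowest in replicate 1 too, but differed less. Counts carry no molecular identifiers, so the Wilson 95% intervals given cover counting error only. Adapter ligation depends on the ends of a small RNA, so a ratio between members is a ratio of reads.

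miR-320a carried nearly all reads of the family. Its counts were 28034, 39152 and 47591 in replicates 1, 2 and 3, and its level was 105136, 169577 and 193948 FPKM (156220 ± 45888, SD, n = 3). That placed it at rank 42 of 783 by the mean, and at rank 44, 41 and 41 in the 3 libraries. Replicate 1 was the low library and replicate 3 the high one, and its rank hardly moved between them.

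miR-320b, which has 2 hairpins on chromosome 1, was the next most abundant member. It had 1260, 1205 and 1548 counts and 4725, 5219 and 6309 FPKM (5418 ± 810, n = 3; rank 165). Its 3 libraries lay close together, with none as low as the highest value of miR-320c.

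miR-320c, with 2 hairpins on chromosome 18, had 376, 239 and 267 counts, or 1559, 1144 and 1203 FPKM (1302 ± 224; rank 263). It was the member whose highest library was replicate 1, where the other 4 had their lowest FPKM. miR-320d, with hairpins on chromosomes 13 and X, had 71, 100 and 108 counts and 311, 505 and 513 FPKM (443 ± 115; rank 351). miR-320e had 10, 10 and 17 counts and 46.3, 53.5 and 85.6 FPKM (61.8 ± 20.9; rank 616). With so few reads, the interval of miR-320e in replicate 2, 0.494 to 1.67 CPM (counts scaled to the library total), overlapped those of both other libraries, and no difference between libraries was detectable for it at this depth. The plot of CPM by member shows that the ranges of the 5 members over libraries did not overlap.

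**Figure D1:**
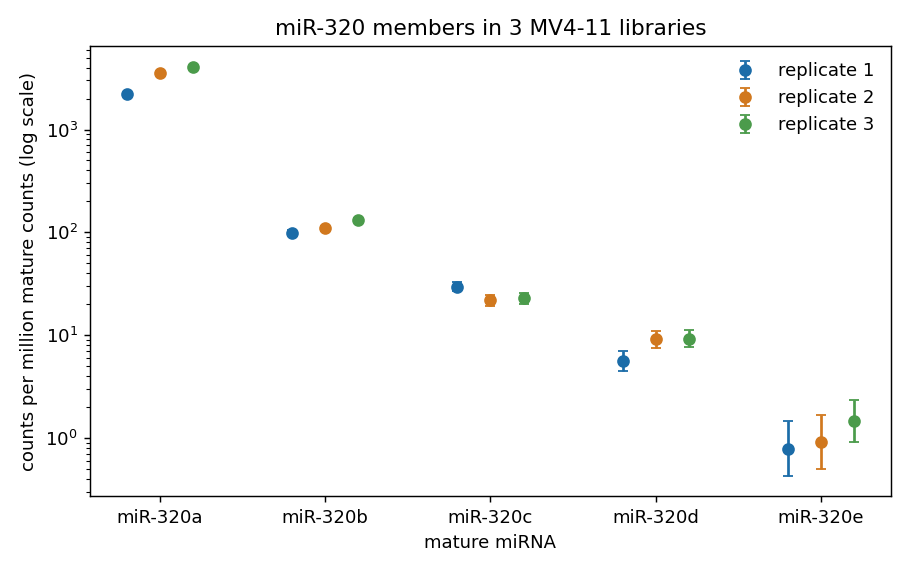
CPM over mature counts (log axis) of each miR-320 member in replicates 1, 2 and 3, with Wilson 95% intervals as error bars, smaller than the points for miR-320a and miR-320b. The members fall in the order a, b, c, d, e in every library, from 2208 to 4074 CPM for miR-320a down to 0.788 to 1.46 for miR-320e.

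The order a, b, c, d, e held in 3 of 3 libraries, with uneven steps. miR-320a was 22.2-fold, 32.5-fold and 30.7-fold above miR-320b in FPKM (28.5 ± 5.48, n = 3). The step from miR-320b to miR-320c was 3.03-fold, 4.56-fold and 5.25-fold, and that from miR-320d to miR-320e was 6.71-fold, 9.44-fold and 6.0-fold. The step from miR-320c to miR-320d was the least even between libraries, at 5.02-fold in replicate 1 against 2.26-fold and 2.34-fold in replicates 2 and 3.

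Each member was tested against miR-320a within libraries (edgeR quasi-likelihood test with the library as a block, fitted on all 782 other mature miRNAs with Benjamini-Hochberg adjustment; called at an adjusted p under 0.05 and an absolute log2 ratio of at least 1). All 4 were called lower, with log2 ratios for miR-320b of -4.81 ± 0.23 (SE, adjusted p = 3.76e-07), for miR-320c of -6.88 ± 0.37 (adjusted p = 6.88e-07), for miR-320d of -8.45 ± 0.30 (adjusted p = 1.42e-07) and for miR-320e of -11.30 ± 0.38 (adjusted p = 1.42e-07). Against so abundant a reference 92.8% of all mature miRNAs were called lower and 3.84% higher, 96.7% in all, so the calls say little beyond the sizes of the ratios. Neighbours in the order were also called different. miR-320c was -2.06 ± 0.23 log2 against miR-320b (adjusted p = 9.71e-05 by the same edgeR test), where 72.6% of all mature miRNAs were called lower. miR-320d was -1.57 ± 0.38 log2 against miR-320c (adjusted p = 0.00499, edgeR), with 58.8% of all called lower, and miR-320e was -2.84 ± 0.31 against miR-320d (adjusted p = 3.87e-05, edgeR), with 46.9% called lower. The p of this fit depended on which member of a pair was the reference, while the ratios hardly did. Turned round, miR-320b was 2.06 log2 against miR-320c (adjusted p = 0.000409, edgeR). miR-320c was 1.57 against miR-320d (adjusted p = 0.00069, edgeR), and miR-320d was 2.84 against miR-320e (adjusted p = 2.64e-15, edgeR). Replicates of a single line measure the spread between these cultures only, and with 3 libraries a sign-flip test of a single ratio cannot give a p below 0.25.

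**Figure D2:**
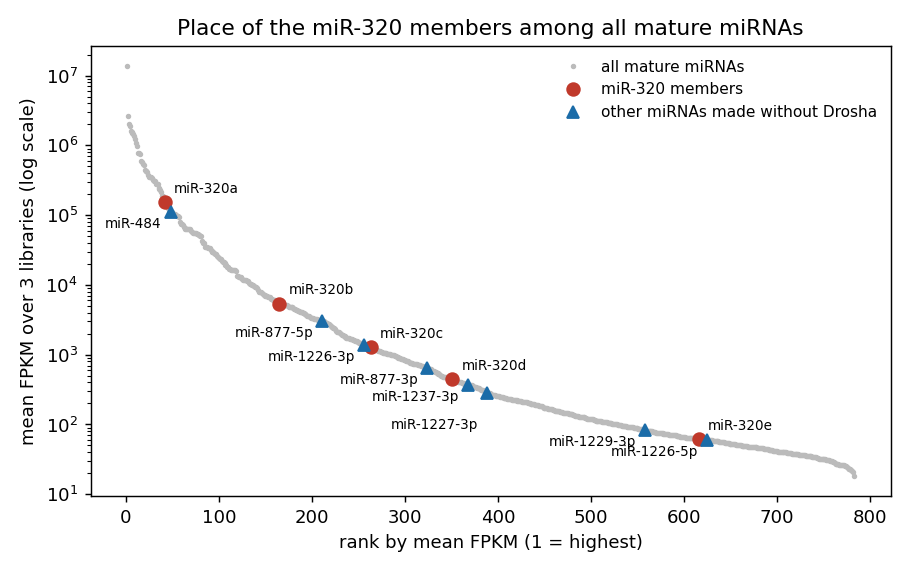
Mean FPKM over 3 libraries (log axis) of all 783 mature miRNAs by rank (grey). Red circles mark miR-320 members, and blue triangles mark 8 miRNAs of other hairpins taken as made without Drosha. miR-320a (rank 42) and miR-484 (rank 48) lie side by side near the top, and the other members and the mirtrons lie between ranks 165 and 625.

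The family as a whole took 0.234%, 0.370% and 0.424% of mature counts in replicates 1, 2 and 3 (0.343 ± 0.0977, SD, n = 3), with intervals of 0.232 to 0.237, 0.367 to 0.374 and 0.420 to 0.428. Those intervals did not overlap, so the libraries differed by more than counting error. The share of miR-21-5p ran in the opposite order over the libraries, and with miR-21-5p left out of the total the family took 0.381%, 0.506% and 0.531%. Its part in the difference between libraries was not tested. The 4 members other than miR-320a summed to 0.0135%, 0.0141% and 0.0166% of mature counts.

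Within the family miR-320a took 94.2%, 96.2% and 96.1% of counts (95.5 ± 1.10, n = 3), or 16.3, 25.2 and 24.5 reads for every read of the other 4 together. miR-320b took 4.24%, 2.96% and 3.13%. miR-320d kept its share, with 0.239%, 0.246% and 0.218%, 3 values whose intervals overlapped. miR-320c did not: it took 1.26% in replicate 1 (interval 1.14 to 1.40) and 0.587% and 0.539% in replicates 2 and 3 (0.517 to 0.666 and 0.478 to 0.607). Relative to the counts of miR-320a, miR-320c varied 2.39-fold between its highest and lowest library, against 1.46-fold for miR-320b, 1.40-fold for miR-320e and 1.13-fold for miR-320d. The shift in the make-up of the family was therefore one of replicate 1, in miR-320c and less in miR-320b.

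**Figure D3:**
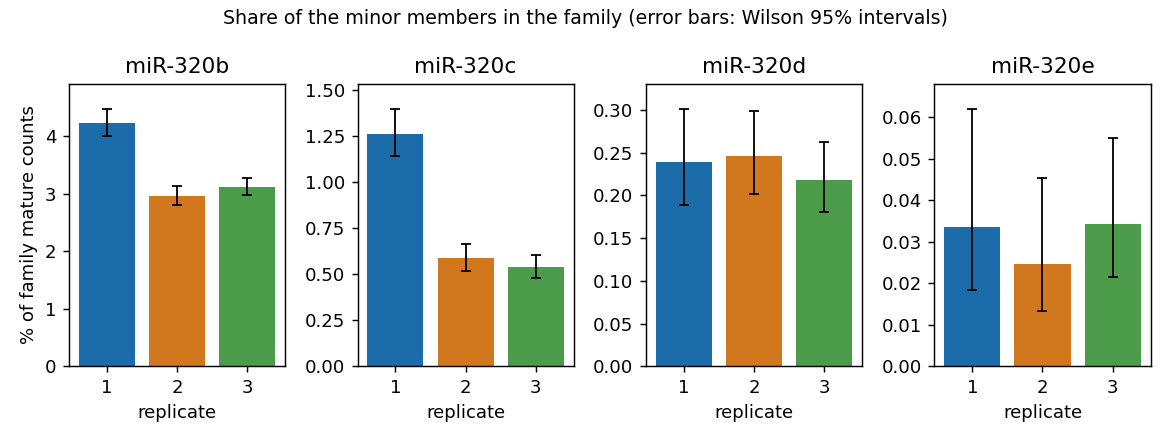
Share of family mature counts taken by miR-320b, miR-320c, miR-320d and miR-320e in replicates 1, 2 and 3 (bars, each panel with its own axis from 0; error bars, Wilson 95% intervals). miR-320c and miR-320b are highest in replicate 1, at 1.26% and 4.24%, while the intervals of miR-320d and of miR-320e overlap across the libraries.

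The coefficient of variation (CV) of FPKM over the libraries was 29.4% for miR-320a, 15.0% for miR-320b, 17.2% for miR-320c, 25.9% for miR-320d and 33.8% for miR-320e. With 3 libraries these values rest on single ones: without replicate 1 the CV was 9.48% for miR-320a, 3.53% for miR-320c and 1.13% for miR-320d, and without replicate 3 it was 7.02% for miR-320b and 10.2% for miR-320e. The median was 29.1% over the 163 mature miRNAs with at least 1000 counts in every library, so the spread of miR-320a, which counting alone would put at 0.511%, was close to that median. Many miRNAs shifted with it: the median log2 ratio over 781 mature miRNAs was 0.48 for replicate 2 over replicate 1 and 0.57 for replicate 3 over replicate 1. miR-320a moved by 0.69 and 0.88 and miR-320d by 0.70 and 0.73, a little above these medians. miR-320b moved by 0.14 and 0.42, a little below them, and miR-320e by 0.21 and 0.89. miR-320c moved the other way, by -0.45 and -0.37, that is -0.92 and -0.95 relative to the medians, above only 13.2% and 14.7% of all mature miRNAs. Replicates 3 and 2 differed little in comparison, with ratios of 0.19 for miR-320a and 0.07 for miR-320c against a median of 0.09.

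Dividing counts by median-of-ratios size factors (0.860, 1.03 and 1.17) gave miR-320a 32589, 37869 and 40696 scaled counts, a CV of 11.1%, against a median of 21.7% for the same 163 miRNAs. On that scale miR-320d had a CV of 8.03%, miR-320b 11.4% and miR-320e 20.5%. miR-320c had 437, 231 and 228 scaled counts and a CV of 40.1%. The scaling thus brought 4 members closer together across libraries and set miR-320c apart, with replicate 1 high and the other two alike.

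**Figure D4:**
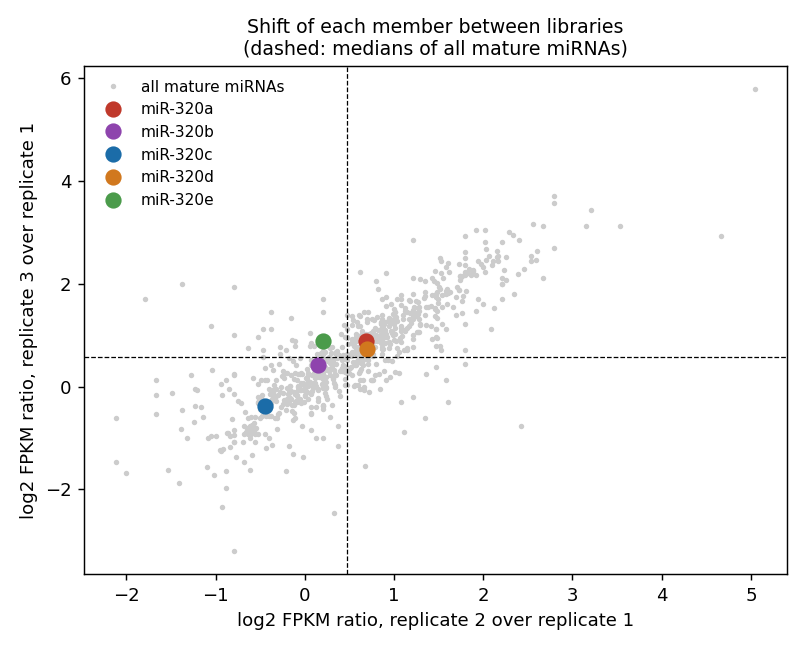
Log2 FPKM ratio of replicate 2 (horizontal axis) and replicate 3 (vertical axis) over replicate 1 for all mature miRNAs with finite ratios (grey) and the 5 miR-320 members (coloured). miR-320a and miR-320d lie close together above both medians (dashed lines, 0.48 and 0.57), and miR-320c lies below both, at -0.45 and -0.37.

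Reads of miR-320b, miR-320c and miR-320d could come from 2 hairpins each, which share the mature sequence and differ outside it. The hairpins of miR-320b and miR-320c are shown because their loops and flanks, in lower case, are what could tell the copies apart (RefSeq, GRCh38.p14, capitals mark the mature miRNA).
mir-320b-1: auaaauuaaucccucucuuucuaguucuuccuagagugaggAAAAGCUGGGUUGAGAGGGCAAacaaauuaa
mir-320b-2: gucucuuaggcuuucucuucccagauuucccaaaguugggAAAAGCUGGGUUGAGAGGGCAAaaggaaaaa
mir-320c-1: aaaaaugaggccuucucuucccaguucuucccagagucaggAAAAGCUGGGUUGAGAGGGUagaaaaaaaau
mir-320c-2: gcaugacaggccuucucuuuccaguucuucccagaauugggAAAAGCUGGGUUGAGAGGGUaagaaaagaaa
In all 7 hairpins whose RefSeq sequence was read, which left out mir-320a, the mature miRNA lay on the 3′ side and started at base 41 to 44. The bases after it were rich in A, 66.7% to 81.8% in the 7 hairpins. The median over 767 mature miRNAs of the 3′ arm was 21.4% (interquartile range 12.5 to 33.3), and 97.4% of those lay below the lowest of the family. Identity between hairpins ran from 70.8% to 83.8% over the 21 pairs (median 78.1%), and before the mature miRNA from 61.0% to 81.0% (median 71.1%).

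The copies were close to even in counts. hsa-mir-320b-1 had 750, 689 and 814 counts and hsa-mir-320b-2 had 510, 516 and 734, so copy 1 took 59.5%, 57.2% and 52.6% of the pair (56.4 ± 3.53, n = 3). mir-320c-1 had 180, 119 and 140 counts and mir-320c-2 had 196, 120 and 128, a share of copy 1 of 47.9%, 49.8% and 52.2% (50.0 ± 2.19). hsa-mir-320d-1 had 34, 58 and 62 counts and hsa-mir-320d-2 had 38, 43 and 46, a share of 47.2%, 57.4% and 57.4% (54.0 ± 5.89). For miR-320c and miR-320d the intervals of all 3 libraries held an even split. Both hairpin rows of miR-320c were highest in replicate 1. As nearly all their reads were counted on the shared mature sequence, the 2 rows are not separate observations. The interval of the share of mir-320b-1 lay above an even split in each library, at 56.8 to 62.2 for replicate 1, 54.4 to 59.9 for replicate 2 and 50.1 to 55.1 for replicate 3. The 2 mature rows of each name carried the counts of the 2 hairpins to within 0 of 4013 reads for miR-320b, 1 of 883 for miR-320c and 2 of 281 for miR-320d. Nearly all reads of these hairpins were thus counted on the mature sequence that both copies share. How reads that fit both copies had been assigned was not given in the sources used here, and its part in the near-even splits was not tested. The splits, their intervals and the tests between copies therefore describe reads as assigned, not the output of each locus.

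Per length, the reads assigned to the copies looked less even. The hairpin features behind the deposited FPKM were 78 and 137 bases long for mir-320b-1 and mir-320b-2, and 87 and 49 for mir-320c-1 and mir-320c-2, where the RefSeq hairpins measure 71 or 72. Copy 1 of miR-320b was 1.28-fold above copy 2 in mean counts and 2.24-fold above it in mean FPKM. Copy 2 of miR-320c was 1.79-fold above copy 1 in mean FPKM, while copy 1 had 0.989 times the counts of copy 2. In edgeR's quasi-likelihood test mir-320b-2 was -1.19 ± 0.19 log2 against mir-320b-1 per length (adjusted p = 0.000189, called lower, as were 68.2% of all hairpins) and -0.37 ± 0.19 without length (adjusted p = 0.0791). mir-320c-2 was 0.83 ± 0.30 log2 against mir-320c-1 per length (adjusted p = 0.0144, under the log2 threshold) and 0.00 ± 0.30 without it (adjusted p = 0.992). The copies of miR-320d, both 47 bases long in the deposited feature lengths, gave -0.25 ± 0.30 log2 (adjusted p = 0.444, edgeR), so a difference between them was not detectable at this depth.

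**Figure D5:**
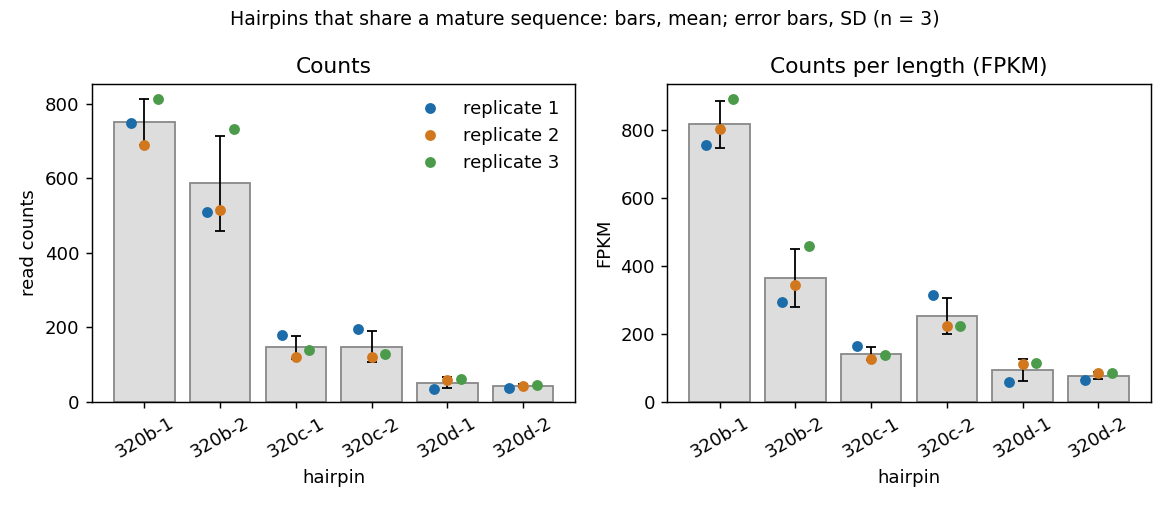
Read counts (left) and FPKM (right) of the 6 hairpins that share a mature sequence in pairs, with bars for the mean of 3 libraries, error bars for the SD and points for replicates 1, 2 and 3. mir-320c-1 and mir-320c-2 are level in counts and 1.79-fold apart in mean FPKM, and the lead of mir-320b-1 over mir-320b-2 grows from 1.28-fold to 2.24-fold.

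In the hairpin table hsa-mir-320a had 29005, 40198 and 48518 counts (41424 ± 11902 FPKM, n = 3; rank 41 of 661). The other 7 hairpins had means from 816 ± 68.7 FPKM for mir-320b-1 (rank 181) through 364 ± 84.5 for mir-320b-2, 253 ± 53.0 for mir-320c-2, 141 ± 19.6 for mir-320c-1, 93.8 ± 32.0 for mir-320d-1 and 76.7 ± 11.4 for mir-320d-2 to 20.7 ± 6.53 for mir-320e (rank 480). Against mir-320a they ran from -5.63 ± 0.25 log2 for mir-320b-1 to -10.96 ± 0.33 for mir-320e, and edgeR called 7 of 7 lower, against 89.8% of all 660 hairpins (94.2% called in either direction). Since only small RNA was sequenced, hairpin values come from the same short reads and are not levels of precursors.

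Reads that the hairpin table held beyond the listed mature miRNA were, by number, almost all those of mir-320a, for which a single mature miRNA was listed. They numbered 971 of 29005, 1046 of 40198 and 927 of 48518, or 3.35%, 2.60% and 1.91% (2.62 ± 0.719), with intervals of 3.15 to 3.56, 2.45 to 2.76 and 1.79 to 2.04. Their number differed less between libraries than the mature counts did, and the share was highest in replicate 1 and lowest in replicate 3, with intervals that did not overlap. Whether they came from the 5′ arm, the loop or shifted ends cannot be read from the tables.

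miR-320b had 0 of 4013 such reads over the 3 libraries, and the upper limits of the intervals were 0.304%, 0.318% and 0.248%, below every value of mir-320a. miR-320c had 1 of 883, miR-320d 2 of 281 and miR-320e 1 of 38. The hairpin features differed in length, with 81 bases for mir-320a, 78 and 137 for the copies of miR-320b and 47 for those of miR-320d. The part of these lengths, and of the unknown assignment of reads that fit 2 copies, in the shares was not tested. Of 245 hairpin names with at least 100 counts in every library, the median share was 0.129% (interquartile range 0.00804 to 0.928), and 86.5% lay below mir-320a. A difference below 0 was set to 0, and 8 of the 245 names had mature counts above the hairpin counts in some library. Of the 83 with a single listed mature miRNA, the median was 0.416% and 74.7% lay below mir-320a. Listed means present in the deposited mature counts, so an annotated arm without a row there was not counted. mir-484, the other capped hairpin, had 2, 5 and 3 such reads, a mean share of 0.0134%, so the 2 capped hairpins of similar level differed in it in each library. Of the mirtrons with 2 listed mature miRNAs, mir-1226 had 4.83%, 3.94% and 4.33%, above mir-320a in 3 of 3 libraries. These rest on few reads, 14 of 290, 14 of 355 and 21 of 485, and their counting error was not set against that of mir-320a. mir-877 had 1.30%, 9.33% and 1.09%, above mir-320a in replicate 2 only.

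Of 11 other hairpins taken as made without Drosha (mir-484 and 10 mirtrons), 7 had a row: mir-484, mir-877, mir-1226, mir-1227, mir-1229, mir-1236 and mir-1237. miR-484 had 15037, 26056 and 39600 counts, or 110210 ± 52544 FPKM (n = 3; rank 48 of 783). It was below miR-320a in 3 of 3 libraries, by -0.58 ± 0.19 log2 in edgeR's test (adjusted p = 0.0186), short of the log2 threshold of 1. Between libraries it moved more than miR-320a, with log2 ratios of 1.00 and 1.52 for replicates 2 and 3 over replicate 1.

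The mirtron products were far lower. miR-877-5p had 575, 742 and 709 counts (3043 ± 599 FPKM, rank 211) and lay between miR-320b and miR-320c. miR-1226-3p had 261, 327 and 440 counts (1396 ± 408 FPKM, rank 256), a level within the range of miR-320c. The other 5 mature names ran from miR-877-3p (652 ± 218 FPKM) to miR-1226-5p (60.1 ± 19.2 FPKM), and mir-1236 had a hairpin row only. All 7 mirtron names were called lower than miR-320a by edgeR, from -5.65 ± 0.24 log2 for miR-877-5p to -11.33 ± 0.37 for miR-1226-5p, as were 92.8% of all mature miRNAs. By mean FPKM the miRNAs of the capped hairpins mir-320a and mir-484 stood at ranks 42 and 48, and all others of both groups at rank 165 or lower. In replicates 1, 2 and 3 miR-484 ranked 57, 50 and 42.

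The mature miRNAs whose levels over the 3 libraries lay nearest to those of miR-320a, by Euclidean distance of log2(FPKM + 1), were miR-27b-3p (0.191), miR-126-3p (0.472), miR-30c-5p (0.488), miR-199b-5p (0.488) and miR-340-5p (0.668). miR-27b-3p had 119067, 176733 and 197252 FPKM and ranked 41, just above miR-320a. The first 4 were lowest in replicate 1, as miR-320a was, while miR-340-5p was nearly flat, with 127161, 129136 and 140516 FPKM. With 3 libraries, nearness is mostly nearness in level.

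miR-4429, the remaining one of the searched miRNAs with the seed AAAGCUG, was looked up after its seed was seen. It had 10, 8 and 16 counts (50.6 ± 18.7 FPKM), a level like that of miR-320e. Among the searched miRNAs with this seed, nearly all reads therefore came from miR-320b, miR-320c and miR-320d. miR-320a, which carried nearly all reads of the family, was not searched, so the share of all reads with this seed is not known here.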

How the data were processed

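RNA from 3 cultures of EV-infected MV4-11 cells was made into small RNA libraries (New England Biolabs) and sequenced with strand kept on an Illumina HiSeq instrument. The submitters' processing notes name Novoalign 2.08.03 and the builds hg19 and mm10. Trimming, settings and the handling of reads with several matches are not given in the sources used here. The authors counted reads over miRBase release 21 and deposited whole counts per feature and library, not normalized, for mature miRNAs and for primary transcripts. They also deposited FPKM, computed from those counts, feature lengths and library totals. The length behind the FPKM was 1 base below that of RefSeq for 671 of 679 matched mature names.

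Every listed row reached 10 counts in at least 1 library. Rows of a repeated name were summed. Depth was 12694823, 10991953 and 11682129 mature counts and 12722997, 11022587 and 11715711 hairpin counts. Wilson 95% intervals are printed for the shares whose difference between libraries or copies is read against counting error. Each miRNA was compared with the reference miRNA inside each library with edgeR 4.0.16 (quasi-likelihood, library as block, offset log of library total times length; R 4.3.3). The reference is common to all ratios of a fit, so these are not independent. limma 3.58.1 (log2(FPKM + 1)) and DESeq2 1.42.0 were alternatives, with other units, filters and left-out replicates. The fit was tested on simulated data. Named were all miR-320 features, the other hairpins taken as made without Drosha that have a row, and the 5 mature miRNAs nearest to miR-320a. Outside this rule, miR-21-5p, miR-4429, the markers and the host genes were named after values were seen. The members and lists were chosen with earlier results of these data known. Sequences and positions are from RefSeq. Sequences were read for 7 hairpins and 4 mature miRNAs of the family, and not for miR-320a or its hairpin.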

Additional observations from a re-analysis of the deposited data

How the results depend on the processing

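Of 339 values recomputed under alternatives, 320 were kept, 1 lost its call, 18 moved and 0 reversed. A ratio was kept if its direction and call stayed, and a share if it stayed within the SD over libraries. A CV or a count of calls was kept within a fixed fold limit, and shares, CVs and counts beyond their limits moved. All 90 recomputed ratios of the 11 family features (4 mature miRNAs and 7 hairpins) against miR-320a or its hairpin kept their call. The share of the family, 0.343%, became 0.473% with miR-21-5p out of the total and, in an alternative chosen after seeing the data, 0.0148% without miR-320a. It ran from 0.302% to 0.397% with each replicate left out, and the share of miR-320a within the family from 95.2% to 96.1%. The CV of miR-320a, 29.4%, fell to 11.1% with size factors and 8.54% with TMM factors, and ran from 9.48% (without replicate 1) to 42.0% with each replicate left out. On the same terms the CV ran from 7.02% to 20.3% for miR-320b, 3.53% to 21.7% for miR-320c, 1.13% to 34.8% for miR-320d and 10.2% to 42.1% for miR-320e. The call between mir-320b-1 and mir-320b-2 was lost without length (-0.37 log2, adjusted p = 0.0791 by edgeR), which shows that it rests on the deposited lengths. Without the replicate block edgeR called 754 mature miRNAs in place of 756 and 620 hairpins in place of 622. The adjusted p of miR-484 against miR-320a ran from 0.00015 (DESeq2) to 0.278 (no replicate block). miR-320e and both copies of miR-320d, with at most 62 counts in a library, are limited by depth.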
